A study of Homo sapiens with 4 samples.

Results

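The clustered protocadherin locus is represented here by the plus-strand peaks of chromosome 5 that lie wholly between 140160000 and 140900000 (hg19), a window of 740 kb that holds the PCDHA, PCDHB and PCDHG clusters. The members were chosen by position and strand alone, and each interval was counted once however many genes list it. They number 18 of the 568810 distinct peaks in the 4 lists. Of these, 15 of 458932 came from eCLIP replicate 1 and 1 of 39168 from eCLIP replicate 2, while 1 of 60227 came from input 1 and 1 of 10483 from input 2.

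The study mapped RNA bound by ZFR, a zinc finger protein of the DZF family, with eCLIP, in which ultraviolet light joins a protein to the RNA it touches and the protein is then pulled down with its RNA. Both eCLIP libraries and both size-matched inputs came from polyclonal Flp-In T-REx-293 cells, a human embryonic kidney line, with FLAG-ZFR integrated at the FRT site and induced with doxycycline (1 µg/mL, 48 to 72 h) before crosslinking at 400 mJ/cm2. The inputs thus carry the same transgene and treatment and differ in leaving out the pull-down. No library of cells without the transgene was analysed here. The labels do not say if replicate libraries were grown as separate cultures. Every p-value of a comparison between eCLIP and input thus refers to variation among the 4 libraries alone, part or all of which could be technical. The deposited p-values of peaks belong to a single library each and measure no variation between libraries. The lists pair no gene names with their identifiers, so the cell line was not checked against marker genes.

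Clustered protocadherins are cadherin-like adhesion proteins of the cell surface, best known for giving neurons their individual identities. In the alpha and gamma clusters, each gene has its own promoter and a large variable first exon, and that exon is spliced over a long distance to a set of constant exons shared by the whole cluster. A primary transcript that starts at an early variable exon therefore runs through all later variable exons as intron. Beta genes stand alone, each with its coding sequence in a single exon. The RefSeq table (GRCh38.p14) lists 15 protein-coding PCDHA genes, 16 PCDHB genes and 22 PCDHG genes, in this order along the chromosome. No hg19 sequence was used here, so the bases under the peaks are not shown.

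Every listed peak lay in a single nested group of genes at the 3′ end of the window. All 18 peaks were linked to each other through shared gene identifiers, 21 in number, and they ran from 140727061 to 140892281, a stretch of 165 kb. The position of this group, last of the window, and its number of identifiers, above the 15 PCDHA genes of RefSeq, match the gamma cluster. The first 567 kb of the window had 0 peaks in both eCLIP libraries and 0 in both inputs. This holds by definition, because the stretch was taken to end at the first listed peak. It holds the alpha and beta clusters and also the start of the gamma group, as that peak was already listed under 3 identifiers. A count of 0 was taken to allow up to 3 peaks. Per 10000 peaks of the library, this limit was 0.0654 in eCLIP replicate 1 and 0.766 in eCLIP replicate 2. The limit was 0.498 in input 1 and 2.86 in input 2. The upper ends of the 95% Wilson intervals were higher, at 0.0837 and 0.981 in eCLIP replicates 1 and 2. They were 0.638 in input 1 and 3.66 in input 2. These limits cover counting error only, and not that the peaks themselves set the end of the stretch. No peak over alpha or beta transcripts was thus listed in any library, which does not show that such peaks are absent. The limits of the shorter lists are the widest. Why the lists hold none there was not tested.

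**Figure D1:**
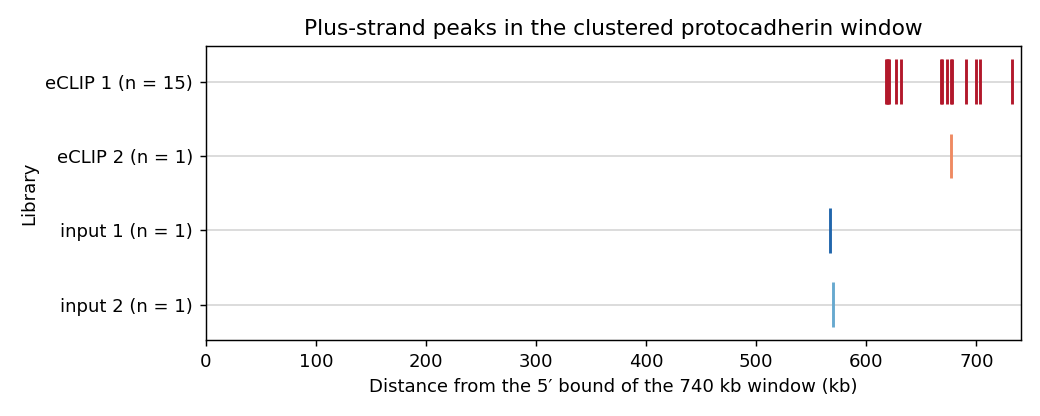
Position of each plus-strand peak (vertical mark) along the 740 kb window, in kb from its 5′ bound, with 1 row per library. The 15 and 1 peaks of the eCLIP libraries and the single peaks of the inputs all lie in the last part of the window, after 567 kb without any peak.

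In eCLIP replicate 1 the 15 peaks spread over 115 kb, from 140777638 to 140892281. They were 13 to 34 bases wide, with a median of 25, and covered 372 bases in all. Neighbouring peaks were 108 to 36667 bases apart, with a median of 4321, so they formed no continuous block. They fell into 6 of the 37 windows of 20 kb that make up the locus, with at most 5 in 1 window.

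The number of gene identifiers listed for a peak shows how far into the nested cluster it lies, because each further variable exon adds a gene. The first peaks of eCLIP replicate 1 were listed under 12 identifiers each. These were 4 peaks within 2.6 kb, at 140777638 to 140777650, 140778740 to 140778761, 140780066 to 140780080 and 140780189 to 140780210. The next, at 140786603 to 140786632, was listed under 13 identifiers, and the one at 140791103 to 140791136 under 14. That last peak was the strongest of the library here, with 4 reads and a deposited p-value between 0.00568 and 0.00658. All 14 others had 3 reads, the lowest number that the lists hold.

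A second run of 6 peaks, each listed under 18 identifiers, began after a gap of 36667 bases. They lay at 140827804 to 140827835, 140828612 to 140828641, 140832880 to 140832911, 140837316 to 140837333, 140837683 to 140837708 and 140850287 to 140850311. The single peak of eCLIP replicate 2 belonged to the same step of the cluster. It lay at 140836535 to 140836561, was 27 bases wide, held 3 reads and was listed under 18 identifiers. Of all members, the peaks at 140860027 to 140860051 and at 140863150 to 140863173, under 19 identifiers, and the peak at 140892258 to 140892281, under 20, lay furthest 3′. All 3 were from eCLIP replicate 1.

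The inputs were listed at the opposite end of the gamma group. The peak of input 1 lay at 140727061 to 140727096, with 4 reads, 3 identifiers and a deposited p-value of 0.00376. The peak of input 2 lay at 140730082 to 140730100, with 5 reads, 4 identifiers and a deposited p-value of 0.000612 to 0.000613. They were 2985 bases apart, and the nearest eCLIP peak was 50.5 kb from the peak of input 1 and 47.5 kb from that of input 2. In the listed peaks, eCLIP and input thus did not overlap in position, but with 1 peak in each input that separation rests on 2 intervals and was not tested.

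**Figure D2:**
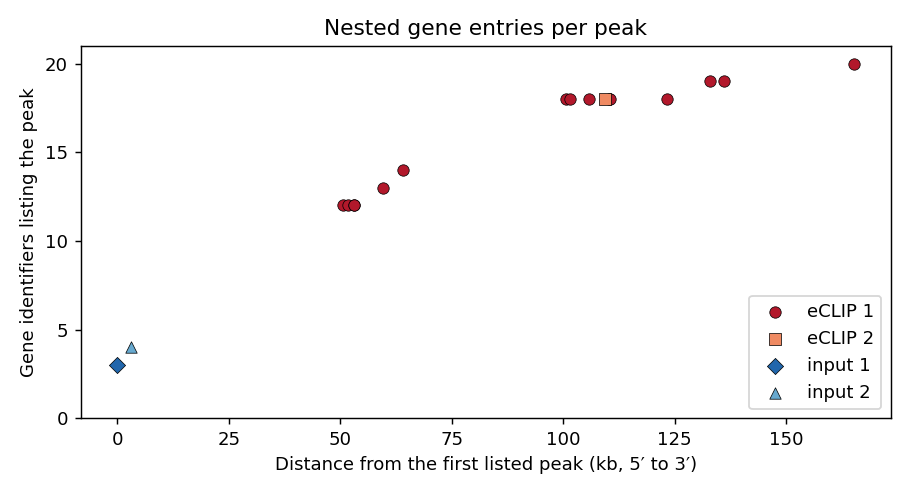
Number of gene identifiers under which each peak is listed (y axis) against its distance in kb from the first listed peak, from 5′ to 3′, with colour and marker giving the library. The count climbs from 3 and 4 in the inputs to 12 to 20 in eCLIP replicate 1, and the eCLIP replicate 2 peak sits among those with 18.

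The rule of the comparison asked for the variable part of the cluster against the part that its genes share. The shared part was taken from the first peak of the gene that starts last to the end of the group. By this definition 1 of 15 peaks of eCLIP replicate 1 (6.67%) and 0 of 1 of eCLIP replicate 2 were in the shared part, and so were 0 of 1 of input 1 and 0 of 1 of input 2. The 1 peak is the one at 140892258 to 140892281. That peak itself sets where the shared part begins, so 1 peak of eCLIP replicate 1 falls in it by definition, and the part as listed is no longer than the peak. The share is therefore a description, and no test of it between eCLIP and input is given. The other 14 peaks of eCLIP replicate 1 lay among the variable exons. Whether a peak there falls in a variable exon or in the intron between variable exons was not analysed here, because no hg19 exon annotation was used.

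The numbers that the authors gave to peaks within a gene add a little to this picture. In the genes that list all 15 peaks of eCLIP replicate 1, numbers run up to 17, counted from 0, so 18 peaks were numbered and 3 are not listed. The missing numbers are 5, 9 and 16. Number 16 lies between 140863173 and 140892258. For the 2 identifiers first listed at the last peak, that peak carries number 1, so an unlisted peak numbered 0 came before it. Numbering starts at 0 with the peak at 140777638 even in genes that already list the input peaks, so no peak was numbered 5′ of it in eCLIP replicate 1.

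No peak of the locus was found again in another library. Of the 15 peaks of eCLIP replicate 1, 0 overlapped the peak of eCLIP replicate 2, 0 that of input 1 and 0 that of input 2, counting 1 shared base as overlap. The peak of eCLIP replicate 2 came closest, ending 754 bases before the peak of eCLIP replicate 1 at 140837316. The inputs did not overlap each other either. The share of all peaks that overlap between these libraries is not given here. The counts of 0 therefore do not set the locus apart from other regions.

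As a share of all peaks, the locus took 0.327 per 10000 (95% Wilson interval 0.198 to 0.539) in eCLIP replicate 1 and 0.255 (0.0451 to 1.45) in eCLIP replicate 2. The inputs had 0.166 (0.0293 to 0.941) in input 1 and 0.954 (0.168 to 5.40) in input 2. Both eCLIP values thus lie between those of the inputs. The mean was 0.291 per 10000 in eCLIP and 0.56 in input, a difference of -0.269 that did not exceed the spread between libraries (exact permutation test, two-sided, p = 1, where 2 libraries against 2 cannot go below 0.33). Without input 2 the sign turns, at 0.125 per 10000. Measured by reads in peaks, the locus took 0.156 and 0.139 per 10000 in eCLIP, against 0.168 and 0.509 in the inputs. By that measure both eCLIP libraries were below both inputs, and the exact permutation p (two-sided) was 0.33, the smallest possible. These shares rest on 46 and 3 reads in eCLIP against 4 and 5 in the inputs, so the order depends on very few reads.

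In both eCLIP libraries and in input 1 the locus held fewer peaks than either of its neighbouring stretches, while input 2 held as few on the 3′ side. In eCLIP replicate 1, its 15 plus-strand peaks compare with 259 in the 740 kb on its 5′ side and 79 in the 740 kb on its 3′ side. In eCLIP replicate 2 the counts were 1, 23 and 3 in the same order. Input 1 had 1, 26 and 8, and input 2 had 1, 5 and 1. Of the peaks in these 3 stretches together, the locus took 4.25% (95% Wilson interval 2.59 to 6.89) in eCLIP replicate 1 and 3.70% (0.657 to 18.3) in eCLIP replicate 2. It took 2.86% (0.506 to 14.5) in input 1 and 14.3% (2.57 to 51.3) in input 2. All 4 intervals overlap. Of 2656 plus-strand windows of 740 kb with a peak in eCLIP replicate 1, 28.5% held as few peaks as the locus or fewer. The same share was 22.0% of 1852 windows in eCLIP replicate 2, 13.7% of 2491 in input 1 and 43.0% of 1802 in input 2. Windows without a peak were not counted. In these last libraries the locus held 1 peak, the fewest possible, so their shares are those of windows with 1 peak.

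**Figure D3:**
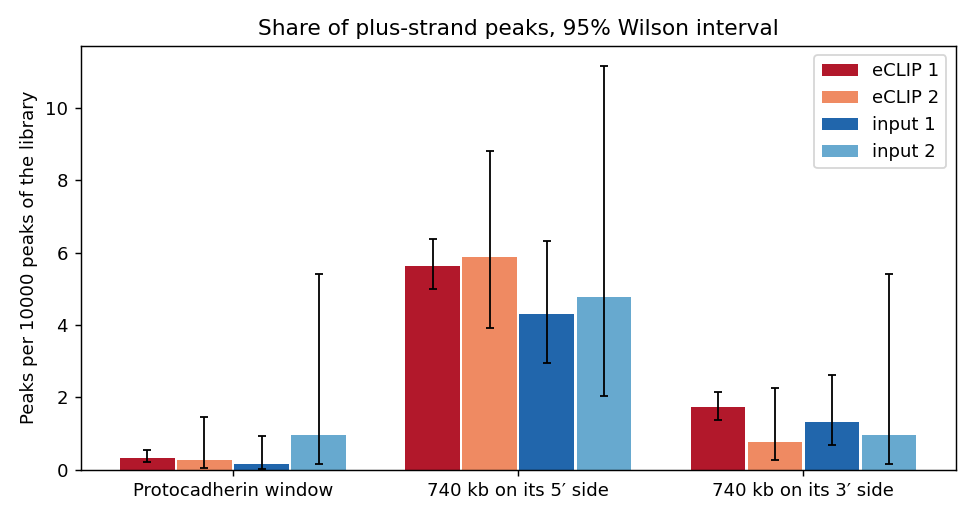
Plus-strand peaks per 10000 peaks of each library (bars, with 95% Wilson intervals) in the protocadherin window and in the equal lengths on its 5′ and 3′ sides. In the eCLIP libraries the window takes 0.327 and 0.255 per 10000, against 5.64 and 5.87 on its 5′ side and 1.72 and 0.766 on its 3′ side. In input 2 the window and its 3′ side both stand at 0.954.

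In eCLIP replicate 1 the peaks of the locus were also weak for their library. There, 14 of 15 (93.3%, 95% Wilson interval 70.2 to 98.8) rested on 3 reads, where 32.2% of all its peaks did. The shares were 36.3% and 38.0% on the 5′ and 3′ sides. On the opposite strand of the same window eCLIP replicate 1 listed 9 peaks with 92 reads in all, and 0 of them were at 3 reads, while eCLIP replicate 2 and both inputs listed 0 there. The plus strand held 46 reads in its 15 peaks. The peak of eCLIP replicate 2 was at 3 reads, like 50.2% of its library. The input peaks, at 4 and 5 reads, were each above the minimum, at which 62.3% of the peaks of input 1 and 49.1% of those of input 2 stood.

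**Figure D4:**
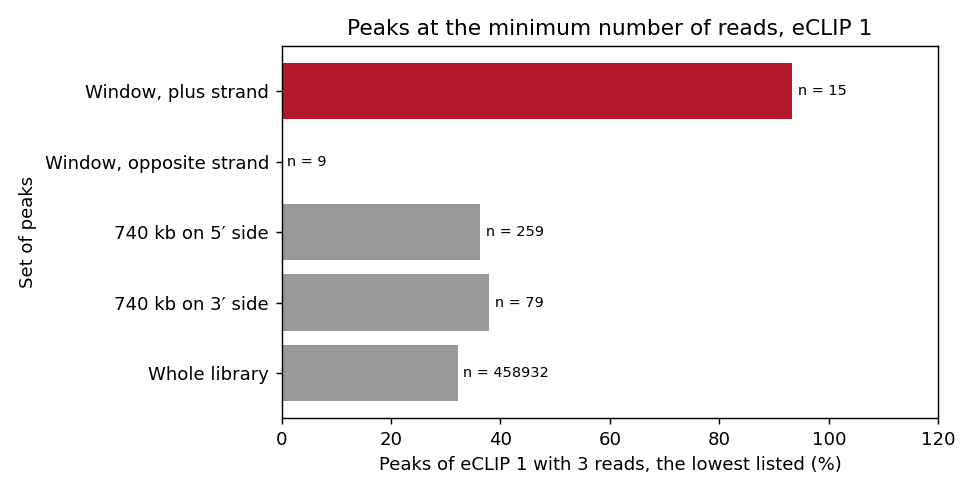
Percentage of peaks of eCLIP replicate 1 that hold 3 reads, the lowest number listed, for the plus strand of the protocadherin window, its opposite strand, the equal lengths on either side and the whole library, with the number of peaks beside each bar. The window's plus strand stands at 93.3%, against 32.2% in the whole library.

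Windows of 20 kb over the whole genome were compared between eCLIP and input with limma, which counts each interval once. None of the 37 windows of the locus held the 10 peaks over the 4 libraries that the test requires. Over the 19475 windows tested, limma called 0 (0%) higher and 0 (0%) lower in eCLIP after adjustment, with 546 higher and 45 lower at an unadjusted p under 0.05. The median log2 difference over these tested windows, which include none of the locus, was 0.261, so the scale is not centred on 0. With no filter, 7 windows of the locus entered and none was called, at adjusted p-values of 0.785 to 0.798. From 140820001 to 140840000 there were 5 and 1 eCLIP peaks against 0 and 0 in the inputs, a log2 difference of 0.44 (SE 0.47, limma adjusted p = 0.785). From 140720001 to 140740000 there were 0 and 0 eCLIP peaks against 1 and 1 in the inputs, a log2 difference of -0.98 (SE 0.62, limma adjusted p = 0.785). These were the 1 window of 7 with both eCLIP shares above both inputs, where 13.1% of all windows were so, and the 1 with both below, where 4.2% were. The differences are of log2(peaks per 10000 + 0.5), which understates changes at counts this low.

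Counting by gene gave a different impression of the same peaks, because the nested genes repeat them. The 15 intervals of eCLIP replicate 1 took 241 lines and the 1 interval of eCLIP replicate 2 took 18, against 3 for input 1 and 4 for input 2. In the 4 lists, 16 peaks stood under 6 or more identifiers, and all 16 were in this locus, where elsewhere 5 was the highest number. Of the 21 identifiers, 17 had at least 10 peaks and entered the limma fit over 8914 genes. They did so mostly through eCLIP replicate 1, which alone gave 14 of them at least 10 peaks. The other 3 had 9 peaks there and passed through the single peak in eCLIP replicate 2. The libraries other than eCLIP replicate 1 added at most 3 peaks to any identifier. Limma called 0 of the 17, as it called 0 (0%) of all genes higher and 0 (0%) lower, with 112 higher and 62 lower at an unadjusted p under 0.05. The adjusted p was 0.995 for each of the 17.

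In 13 of these 17 identifiers each eCLIP library had a larger share than either input, and in 0 a smaller one. The same was so for 21.1% and 10.2% of all genes, but this comparison is no test. Without the peaks of eCLIP replicate 1, 0 of the 17 would have been tested, so the filter itself favoured a larger eCLIP share. All 13 had 0 peaks in both inputs and shared the same few eCLIP peaks, so this is 1 observation listed 13 times and not 13 genes. The remaining 4 were those that also list an input peak. Over all 8914 genes tested the median log2 difference was 0.157, so the scale is not centred on 0. For ENSG00000204956.4, listed at all 18 intervals, the counts were 15 and 1 in eCLIP against 1 and 1 in input, a log2 difference of -0.31 (SE 0.76, limma adjusted p = 0.995). For ENSG00000261934.1 they were 11 and 1 in eCLIP against 0 and 0 in input, a log2 difference of 0.55 (SE 0.37, limma adjusted p = 0.995). The direction of a gamma gene in such a table therefore depends on whether its entry starts before or after the input peaks.

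The deposited p-value of a peak also depended on the gene it was listed under. Across the identifiers of 1 interval, the highest p was up to 1.16 times the lowest, for the peak with 4 reads. ENSG00000204956.4 gave the lowest p at 14 of the 15 peaks of eCLIP replicate 1, and ENSG00000261934.1 gave the highest at 10. At the remaining peak, 140850287 to 140850311, all 18 identifiers gave the same p of 0.0223. For shares and ranks, the lowest p of each interval was used.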

How the data were processed

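The submitters' processing notes name cutadapt, STAR, SAMtools and the hg19 build. Tool versions, the peak caller and the annotation were not stated in the sources used here. For every library the authors deposited 1 peak list, with a p-value for each peak (at most 0.05) and a score, which is 10 times the negative log10 of that p in whole numbers, where p is above 0. Each deposited peak name ends in a whole number, taken here as its reads although no header says so. Sequencing depth is unknown, and precision is set by the number of peaks. Coordinates count from 1.

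Intervals were counted once per library, with pandas 2.3.3 and scipy 1.17.1. Identifiers listed for the same interval were linked. Only 1 linked group of at least 5 was found, where an alpha and a gamma group had been planned for, so alpha and beta could not be split by identifiers. Windows of 20 kb and genes were fitted over all features with limma 3.58.1 in R 4.3.3 (lmFit, eBayes with trend, two-sided) on log2(peaks per 10000 + 0.5), with at least 10 peaks over the 4 libraries, p-values adjusted by Benjamini-Hochberg (threshold 0.05). The fits were also run on simulated lists with counting error only, which do not bear on variation between libraries. Other filters, pseudocounts, p-value limits and a replicate block were tried. Named peaks were to be at most 10 of eCLIP replicate 1 and 5 of each other library. Because 14 of 15 tied at 3 reads, all are given. The locus, its parts and tests were chosen with earlier results of these data known.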

Additional observations from a re-analysis of the deposited data

How the results depend on the processing

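The difference in mean share of the locus, eCLIP minus input, stayed below 0 with touching peaks merged (-0.313 per 10000) and by shares of reads (-0.191). Under a p-value limit of 0.001 (-1.64) and with lists of equal length (-0.477), only the input 2 peak remained, with 0 and 0 in eCLIP against 0 and 1 in input. Equal length keeps the whole list of input 2, so neither value bears on stability, and the shared-part share could not be computed. Leaving out 1 library moved the difference between -0.663 and 0.125 per 10000, with the sign turned without input 2. The gamma group, which holds all peaks of the locus, gave the same values. The shared-part difference ranged from 0 to 6.67 percentage points when 1 library was left out, and it is 0 without eCLIP replicate 1. The peak that sets the shared part is from that library, so this range follows from the definition and does not bear on stability. The overlap between libraries was also 0 when 0.5 of the shorter peak had to be shared and at the p-value limit. Neither setting could give another value, so neither bears on stability. An overlap of 0 at 1 base leaves none at 0.5, and at the limit only the input 2 peak remained.

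Over all 20 kb windows, the p-value limit raised the calls from 0 to 787 higher, in a fit that no window of the locus entered. With the replicate number as a block, 3 windows were higher and 32 lower, again with no window of the locus tested, and 3 genes were higher and 1 lower, with 0 of the 17 identifiers of the locus among them (lowest adjusted p 0.336). The replicate deviations of eCLIP and input correlated at 0.277 over windows and 0.397 over genes, but the labels give the libraries only a shared number. Fits without 1 library, where a lone library is assumed to vary like the other group, called 0 to 4127 windows and 0 to 695 genes higher, and 0 windows and 0 to 5 genes lower. Without eCLIP replicate 2, 13 of the 17 tested identifiers were called higher (lowest limma adjusted p 0.000666), beside 695 of 8914 genes (7.80%). These are the 13 with 0 peaks in both inputs, so the inputs gave the fit no spread for them. Without the peaks of eCLIP replicate 1, 0 of the 17 would have passed the filter, so these calls are no support for a difference.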
